A study of Saccharomyces cerevisiae with 4 samples.

Results

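The histone genes of budding yeast, Saccharomyces cerevisiae, were examined in a ChIP-seq map of Swc4. The set was taken by name from the R64 gene table and holds 10 of its 6002 nuclear protein-coding genes. They are HTA1 and HTA2 for H2A, HTB1 and HTB2 for H2B, HHT1 and HHT2 for H3, HHF1 and HHF2 for H4, HTZ1 for the variant H2A.Z, and HHO1 for the linker histone H1. A gene counted as called in a library when at least 1 bp of a peak lay over its coding region or the 500 bp upstream of its coding start. The choice of genes used no measured value, although it was made with earlier results of these data known.

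ChIP was done with a myc antibody in haploid cells of the BY background, grown untreated in rich medium to mid-log phase. Swc4 carried 13 copies of the myc tag in all 4 libraries, so tagged Swc4 is common to both genotypes. The yaf9d cells lack YAF9 by their sample titles (2 libraries), and the wild_type cells carry the same tag with no deletion named (2 libraries). The genotype entry of the yaf9d samples names the tag alone. Nothing in the labels shows that replicates are separate cultures, so their spread, and any p-value built on it, may be technical.

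H2A, H2B, H3 and H4 form the core of the nucleosome, and their genes in this yeast lie in divergent pairs, each transcribed from a shared spacer. Their transcription is confined mainly to late G1 and S phase and is held back outside it by the HIR complex and its partner Asf1 at each pair except HTA2 and HTB2. HTZ1 and HHO1 are single genes outside these pairs. Swc4 is a subunit of SWR1, the remodeler that exchanges H2A for H2A.Z, and of NuA4, the acetyltransferase for H4, H2A and H2A.Z. Yaf9, which binds acylated H3, belongs to both complexes. The products of these genes are thus the substrates of the complexes that carry Swc4.

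Each file is a list of peaks called in 1 library, and a locus without a peak is not shown to be unbound. The nuclear lists held 616 and 1139 peaks in yaf9d replicates 1 and 2 and 884 and 704 in wild_type replicates 1 and 2. Read totals were not used here. The YAF9 window had a peak in yaf9d replicate 2, with its summit 385 bp upstream of the coding start and no overlap with the coding region, and no peak in the other 3 libraries. A peak list does not test whether the gene was deleted.

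Swc4 peaks were found at HHT2, HHF2 and HTZ1 in all 4 libraries, at the 4 H2A and H2B genes in wild_type replicate 2 alone, and at HHT1, HHF1 and HHO1 in no library. The count was 3 and 3 genes in the yaf9d libraries and 3 and 7 in the wild_type libraries. The share of all protein-coding genes with such a peak was 14.4% and 22.4% in yaf9d replicates 1 and 2 and 21.2% and 18.1% in wild_type replicates 1 and 2. A peak in all 4 libraries was present at 6.05% of genes, in wild_type replicate 2 alone at 2.72%, and in no library at 63%. Since the peaks of a pair are shared, the 7 genes of wild_type replicate 2 stand for 4 loci and the 3 genes of the others for 2 loci.

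**Figure D1:**
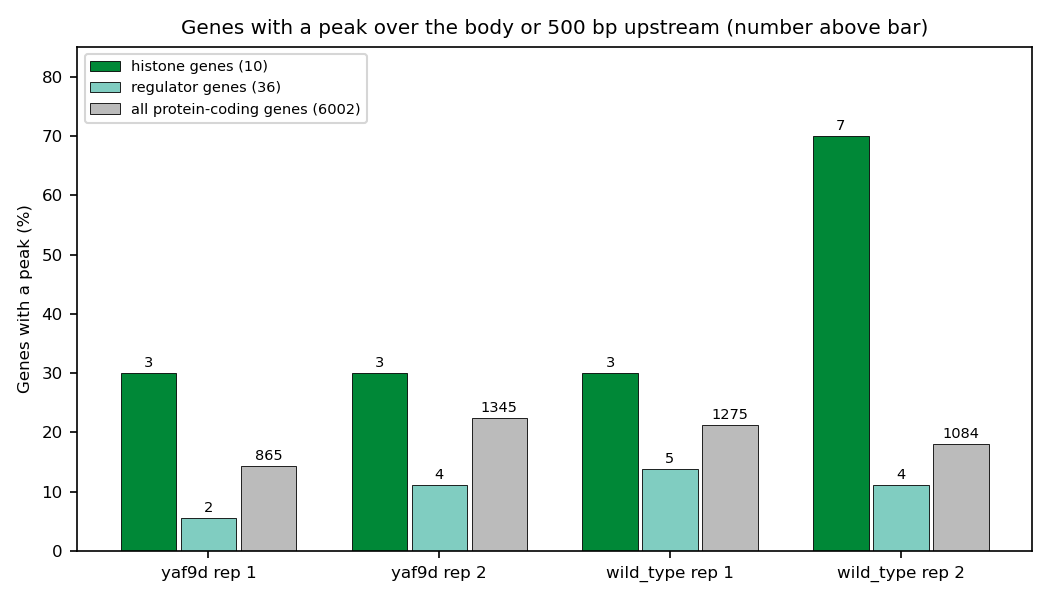
Percentage of genes with a Swc4 peak over the coding region or the 500 bp upstream in each library, for the 10 histone genes, 36 histone regulator and chaperone genes and all 6002 protein-coding genes, with the number of genes above each bar. The histone bar stands at 3 of 10 in both yaf9d libraries and wild_type replicate 1 and at 7 of 10 in wild_type replicate 2.

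With every listed peak counted, the genotypes differed in the number of histone genes called by less than the spread between the wild_type replicates. The mean was 3 ± 0 genes in yaf9d and 5 ± 2.83 in wild_type (SD, n = 2 each; two-sided exact permutation p = 1), and the upstream windows alone gave the same counts. Upstream windows alone were called at 11.2% and 13.6% of all genes in yaf9d and 15.9% and 14.3% in wild_type. Coding regions were touched at 1 and 2 genes in yaf9d and 2 and 4 in wild_type, with a mean of 1.5 ± 0.707 in yaf9d and 3 ± 1.41 in wild_type (SD, n = 2 each; two-sided exact permutation p = 0.667), while 6.3% and 14.4% of all coding regions were touched in yaf9d and 13.5% and 11.8% in wild_type. Since 2 libraries against 2 allow no p below 0.333, significance at 0.05 was out of reach. The count of called genes rests on wild_type replicate 2, since without it the difference was 0 genes, and without wild_type replicate 1 it was -4.

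The comparison depended on the peak threshold. With peaks at a −log10 q-value of 5 or more, 0 and 1 histone genes were called in yaf9d and 3 and 6 in wild_type, so that the genotypes did not overlap and the difference was -4 genes (exact two-sided permutation p = 0.333). HHT2 and HHF2 count through a shared peak, whose −log10 q-values in yaf9d, 4.59 and 4.24, lay under this threshold. The HTZ1 peak of wild_type replicate 2, at 4.90, also fell under it. The share of all genes at this threshold was 11.7% and 16.6% in yaf9d and 15.5% and 13.7% in wild_type, which overlap. Coding regions were touched at 0 and 1 histone genes in yaf9d and 2 and 3 in wild_type (two-sided exact permutation p = 0.333), and at 4.42% and 9.51% of all genes in yaf9d and 9.33% and 8.75% in wild_type. With summits in place of overlap, 1 and 2 histone genes were called in yaf9d and 2 and 4 in wild_type, while the share of all genes was 9.08% and 17% in yaf9d and 15.7% and 11.4% in wild_type. With peaks of fold 2 or more, 0 and 0 histone genes were called in yaf9d and 0 and 2 in wild_type, and 9.7% and 9.23% of all genes in yaf9d and 8.28% and 8.26% in wild_type.

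The divergent H3 and H4 pair of HHT2 and HHF2 carried a peak of like shape in every library. The peak ran from 575892 to 576519 and from 575894 to 576490 on chromosome XIV in yaf9d replicates 1 and 2. In wild_type replicates 1 and 2 it ran from 575857 to 576478 and from 575838 to 576607. Widths were 628 and 597 bp in yaf9d and 622 and 770 bp in wild_type. A stretch of 585 bp, from 575894 to 576478, was common to the 4 peaks. The build of these coordinates is not named in the sources used here.

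The peak was not centred on the shared spacer. HHT2 and HHF2 are separated by 676 bp, of which the peak covered 69.4% and 65.1% in yaf9d and 63.3% and 82.4% in wild_type. It entered the first 159 and 157 bp of the HHT2 coding region in yaf9d and the first 194 and 213 bp in wild_type, and it ended 208 and 237 bp short of the HHF2 coding start in yaf9d and 249 and 120 bp short of it in wild_type. The summits lay at 576026 and 575988 in yaf9d and at 575963 and 576001 in wild_type. All 4 were thus inside the H3 gene, within 63 bp of one another.

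Counted from the HHT2 coding start, with negative values inside the gene, the summits stood at -24 and -62 bp in yaf9d and at -87 and -49 bp in wild_type. The genotypes overlapped. The means were -43 ± 26.9 bp in yaf9d and -68 ± 26.9 bp in wild_type (SD, n = 2 each), and the yaf9d minus wild_type difference of 25 bp was smaller than the spread between replicates (exact two-sided permutation p = 0.667). Without either yaf9d replicate 1 or wild_type replicate 1 the difference was 6 bp, and without either yaf9d replicate 2 or wild_type replicate 2 it was 44 bp. From HHF2, the H4 gene, the same summits lay 701 and 739 bp upstream of the coding start in yaf9d and 764 and 726 bp upstream of it in wild_type. HHF2 therefore counted as called through the flank of a peak whose summit was in its neighbour.

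**Figure D2:**
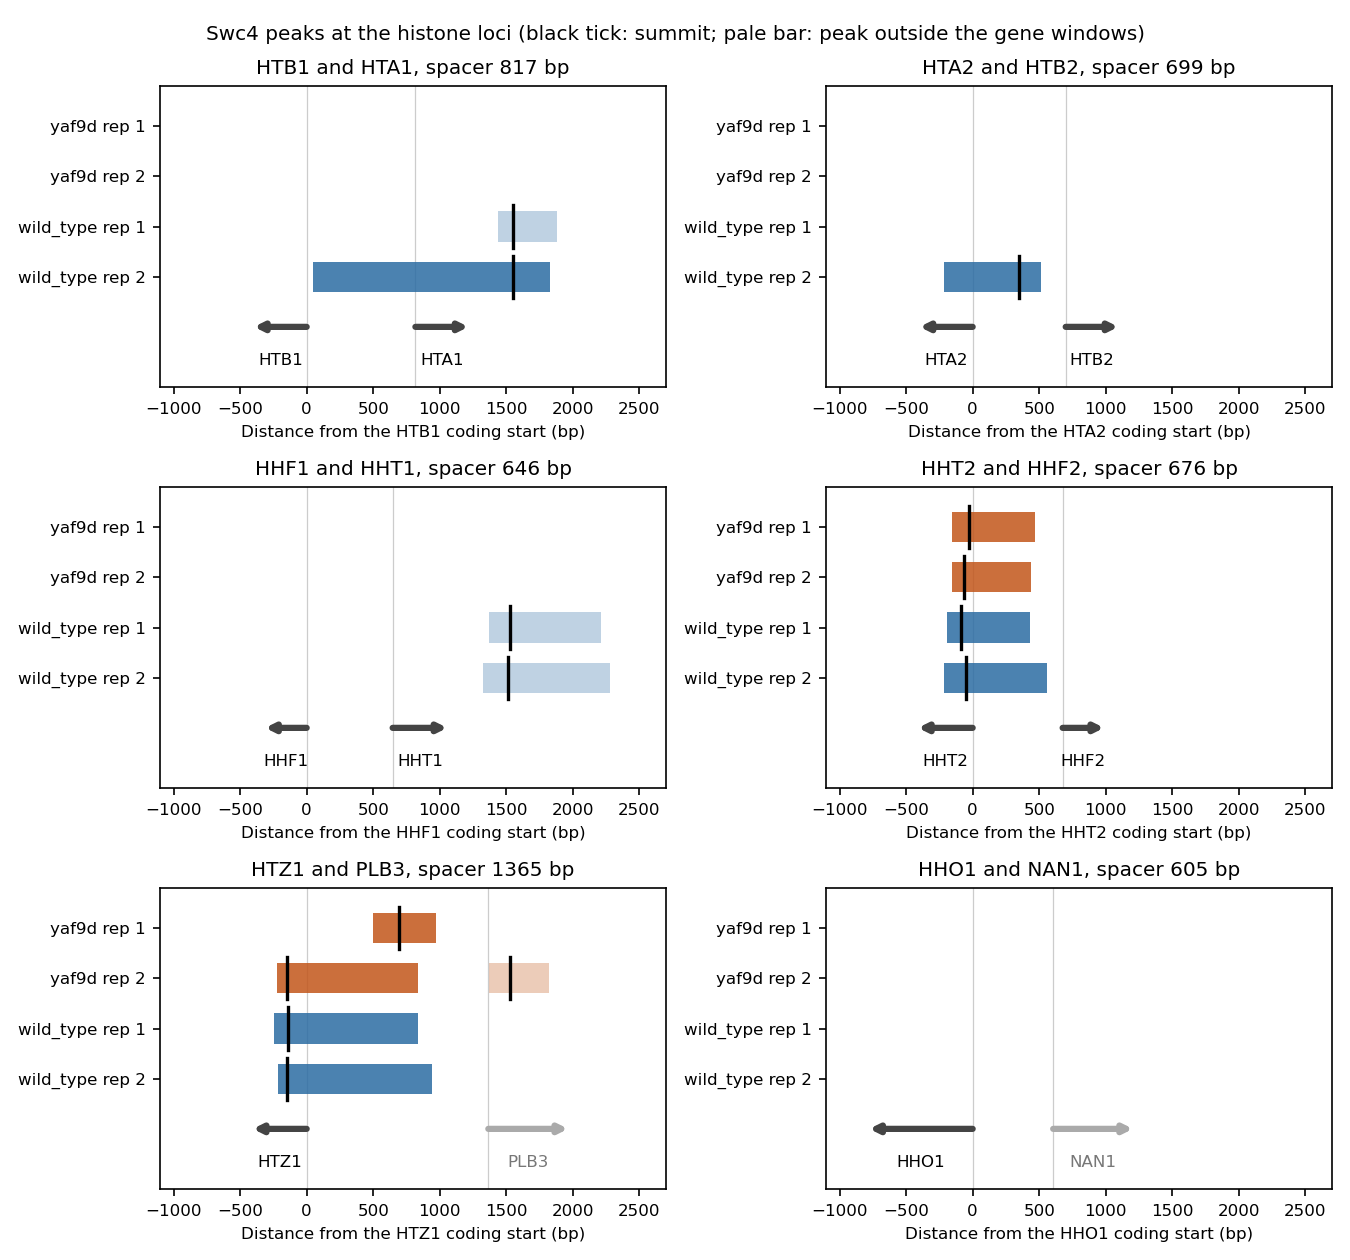
Peaks of the 4 libraries at the 6 loci, with distance from the coding start of the left gene in bp on the horizontal axis, yaf9d bars in orange and wild_type bars in blue, and black ticks for summits. Dark arrows are whole histone coding regions and grey arrows the first part of a neighbour. The peaks at HHT2 and HHF2 have their summits inside HHT2 in all 4 libraries, and HTZ1 has its summit inside the gene in 3.

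These peaks sat low in their lists by the authors' fold. The fold was 1.43 and 1.37 in yaf9d and 1.62 and 1.56 in wild_type, where the list medians were 2.50 and 1.80 in yaf9d and 1.83 and 1.92 in wild_type. By rank of fold, with 1 the highest, it was number 577 of 616 and 1052 of 1139 in yaf9d and 620 of 884 and 567 of 704 in wild_type. The −log10 q-values were 4.59 and 4.24 in yaf9d and 11.2 and 8.02 in wild_type. Both yaf9d folds were below both wild_type folds. No test between genotypes was made on folds, which are scaled within a list.

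The direction at HHT2 and HHF2 was the less frequent one among the 363 genes called in all 4 libraries. Both yaf9d folds lay below both wild_type folds in 5.51% of these genes and above both in 49.3%. HHT2 and HHF2 are themselves among the former, through a shared peak. The median highest fold of the 363 genes was 4.15 and 3.28 in yaf9d and 2.31 and 2.48 in wild_type. Folds of different lists are not on a common scale, and the direction among shared genes of similarly low fold was not counted. These shares therefore do not show that the direction at HHT2 is unusual for a peak of its level. Of the 363 genes, 19 and 3 had a lower fold than HHT2 in yaf9d replicates 1 and 2, and 47 and 35 in wild_type replicates 1 and 2. Thus 5.23% and 0.826% of the shared genes in yaf9d and 12.9% and 9.64% in wild_type had a lower fold than HHT2.

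At HHT2 a low fold was listed with both a high background and a high pileup. A peak over a high background is listed only with a high pileup, so its pileup rank says little by itself. The listed fold and p-value of a peak together fix the number of fragments piled up at the summit and the local background they were set against, on the scale the caller used. At HHT2 the pileup was 206 and 237 in yaf9d and 275 and 232 in wild_type, which placed it among the highest 26.1% and 20.7% of the yaf9d lists and the highest 11.8% and 19.1% of the wild_type lists. The background was 144 and 173 in yaf9d and 169.5 and 149 in wild_type. The list medians of the background were 46.7 and 71.3 in yaf9d and 64.5 and 56.2 in wild_type.

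The background at HHT2 kept a nearly fixed ratio to the lowest background of its own list. Such a floor was shared within 1% by 44 and 29 peaks in yaf9d and 28 and 24 in wild_type. The ratio was 5.27 and 5.32 in yaf9d and 5.45 and 5.25 in wild_type, and the genotypes overlapped. The pileup at the summit was 7.55 and 7.29 times that floor in yaf9d and 8.84 and 8.18 times in wild_type. With a nearly fixed background ratio, this largely repeats the folds. How many other peaks separate by genotype on this measure was not counted. These ratios are a description, and were not tested. The origin of the background, a control or the ChIP library itself, is not stated, and its part in the folds of the histone peaks was not tested.

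**Figure D3:**
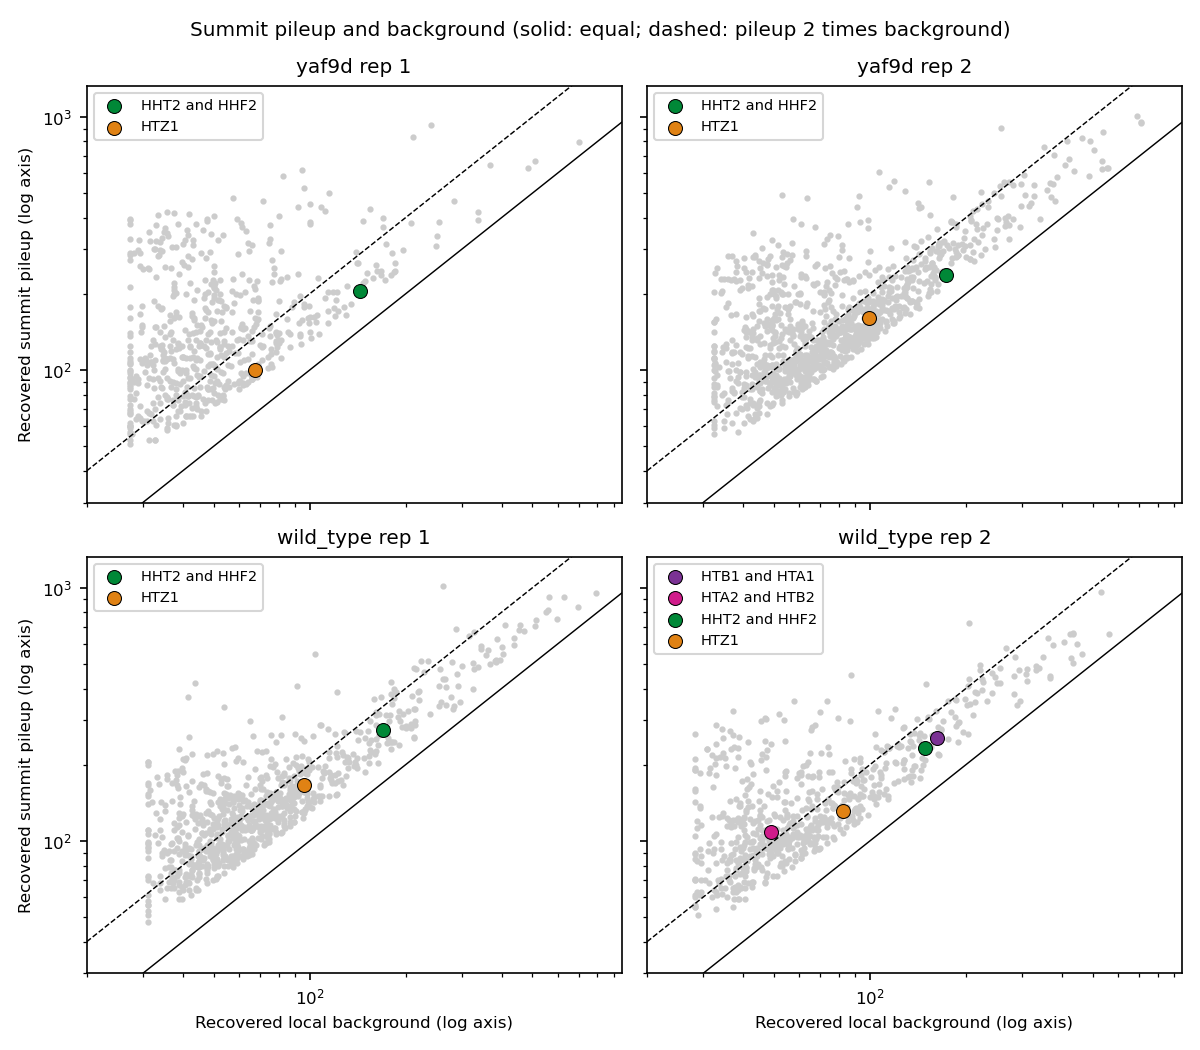
Summit pileup against local background for each nuclear peak (grey) and for the histone peaks (coloured), both recovered from the listed fold and p-value on log axes, 1 panel per library; the solid line marks equal values and the dashed line a pileup 2 times the background. The HHT2 and HHF2 peak lies to the right of most peaks in all 4 panels and below the dashed line, with a background between 144 and 173.

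Peaks with summits inside protein-coding genes had higher backgrounds than other peaks in each list. Their median background was 56.1 and 83.4 in yaf9d and 72.4 and 70.8 in wild_type, and that of the other peaks was 42.3 and 51.4 in yaf9d and 48.8 and 44.4 in wild_type. The median fold inside genes was 1.65 and 1.66 in yaf9d and 1.72 and 1.75 in wild_type. That of the other peaks was 3.19 and 2.99 in yaf9d and 2.46 and 2.55 in wild_type. The median pileup inside genes was 111 and 137 in yaf9d and 130 and 128 in wild_type. That of the other peaks was 147 and 167 in yaf9d and 138 and 124 in wild_type. HHT2 lay above the median background of peaks inside genes in each library.

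HTZ1, which encodes H2A.Z, carried a broad peak in 3 libraries and a shorter, displaced peak in yaf9d replicate 1. The broad peak ran from 303758 to 304822 on chromosome XV in yaf9d replicate 2, from 303738 to 304817 in wild_type replicate 1 and from 303764 to 304924 in wild_type replicate 2. Its widths were 1065, 1080 and 1161 bp in that order, where the list medians were 407, 447.5 and 611.5 bp. These peaks ranked 47, 38 and 88 by width in lists of 1139, 884 and 704. They shared 1054 bp.

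The 3 broad peaks had almost the same summit. It lay 150 bp inside the HTZ1 coding region in yaf9d replicate 2, 141 bp inside in wild_type replicate 1 and 145 bp inside in wild_type replicate 2, a range of 9 bp. HTZ1 and PLB3, a phospholipase gene read the other way, are separated by 1365 bp, of which these peaks covered 61.5%, 61.1% and 68.9%. The upstream flank thus reached far into the spacer without touching PLB3, whose coding start was still 527, 532 and 425 bp away.

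The peak of yaf9d replicate 1 ran from 304481 to 304952, with its summit at 304677, 694 bp upstream of HTZ1 and 672 bp upstream of PLB3. It met the 500 bp window of HTZ1 by 3 bp, the narrowest call in the set, and had no overlap with the coding region. It shared 337 bp with the 3 broad peaks, all in the spacer. Its fold was 1.48 at a −log10 q-value of 2.50, and it ranked 563 of 616. HTZ1 therefore had a peak over its coding region in 1 of 2 yaf9d libraries and in both wild_type libraries.

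Because of that library the mean summit position of HTZ1 was 272 ± 597 bp upstream in yaf9d and -143 ± 2.83 bp in wild_type (SD, n = 2 each). The difference of 415 bp was smaller than the spread between the yaf9d replicates (exact two-sided permutation p = 1). Without yaf9d replicate 1 it was -7 bp, and without yaf9d replicate 2 it was 837 bp. No direction is given for it.

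Like the H3 and H4 pair, HTZ1 had folds below the list median in each library. The folds were 1.48 and 1.61 in yaf9d and 1.72 and 1.59 in wild_type, and the genotypes overlapped. The 1.48 of yaf9d replicate 1 belongs to the displaced peak. By rank of fold HTZ1 was number 563 of 616 and 770 of 1139 in yaf9d and 527 of 884 and 553 of 704 in wild_type. In each list it ranked above HHT2, most clearly in yaf9d replicate 2. The summit pileup was 100 and 161 in yaf9d and 166 and 131 in wild_type, over a background of 67.5 and 99.5 in yaf9d and 95.8 and 82.1 in wild_type. The background at the 3 gene-body summits was 3.06 times the list floor in yaf9d replicate 2 and 3.08 and 2.90 times in wild_type. That is below the ratio at HHT2 in each of these libraries. In yaf9d replicate 2 a further peak lay in the PLB3 coding region, from 305356 to 305802, with a fold of 1.53.

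A stronger peak stood on the other side of HTZ1. Over YNCO0011W, a tRNA gene, a summit lay 2423 and 2425 bp past the HTZ1 stop in yaf9d replicates 1 and 2 and 2451 bp past it in wild_type replicate 2, with folds of 3.30 and 3.71 in yaf9d and 2.86 in wild_type. In wild_type replicate 1 this peak was not called. Many tRNA genes have near-identical copies elsewhere in the genome. Within 3 kb of any histone gene no other peak in the 4 libraries had a fold as high.

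**Figure D4:**
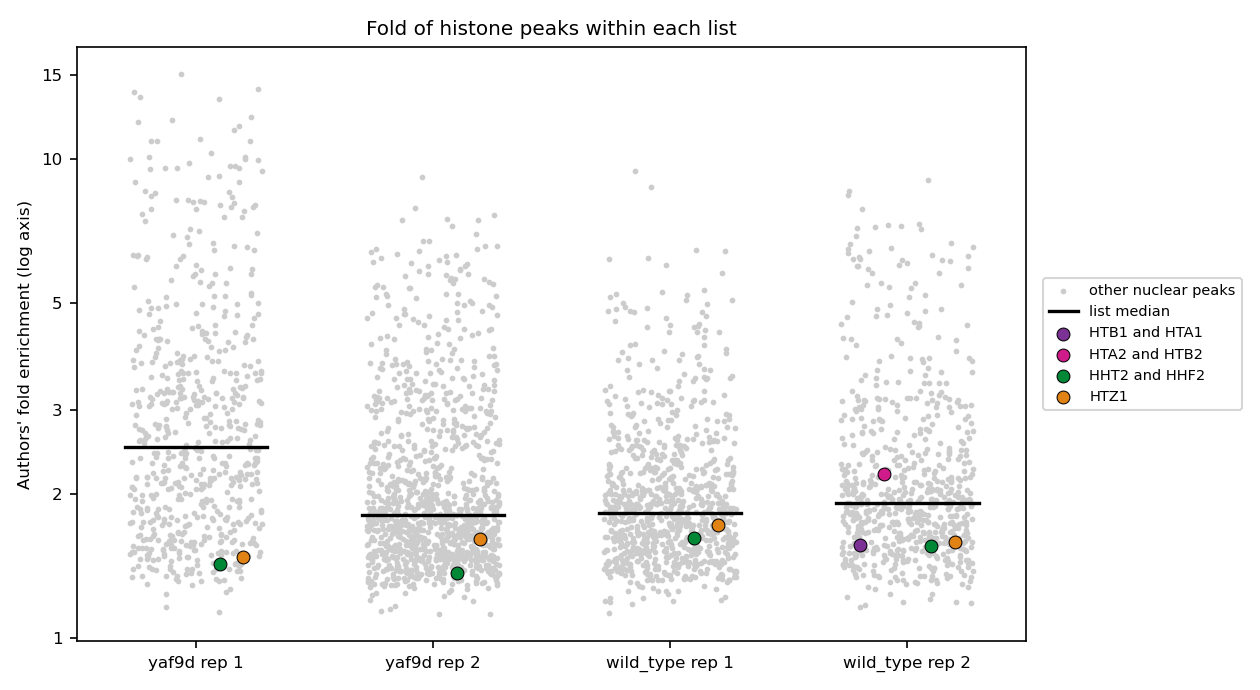
Fold enrichment given by the authors, on a log axis, for each nuclear peak (grey), the list median (black line) and the peaks over histone gene windows (coloured), by library. The peaks at HHT2 and HHF2 and at HTZ1 lie below the list median in all 4 libraries, and the peak at HTA2 and HTB2, with 2.20 in wild_type replicate 2, lies above it.

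The H2A and H2B pairs were called in wild_type replicate 2 alone, and their 2 peaks differed in form. The peak at HTA2 and HTB2 had its summit in the middle of their spacer of 699 bp. It ran from 235576 to 236306 on chromosome II, and its summit at 236140 lay 348 bp upstream of HTA2 and 352 bp upstream of HTB2. It was the only core histone peak with its summit in a divergent spacer. It had the highest fold of the set, 2.20, ranking 233 of 704, with a −log10 q-value of 11.3.

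The pileup at HTA2 and HTB2 was 109 over a background of 48.9, below the list median of 56.2, unlike the other core histone peaks. At the median background of each list, the lowest listed p-value would be reached at a fold of 1.45 and 1.33 in yaf9d and 1.36 and 1.38 in wild_type. The fold of 2.20 was above the 1.38 of its own list, wild_type replicate 2. Folds of different lists are not on a common scale, so it is not set against the other limits. The local background at HTA2 in the libraries without a call is not known from the lists. The nearest summit in those libraries lay 6191 and 3356 bp from the HTA2 coding start in yaf9d and 6608 bp in wild_type replicate 1.

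The peak through which HTB1 and HTA1 were called in wild_type replicate 2 had its summit beyond both genes. It ran for 1786 bp, from 914758 to 916543 on chromosome IV, and ranked 17 of 704 by width. It covered all 399 bp of HTA1 and 94.5% of the spacer of 817 bp, and it stopped 46 bp short of the HTB1 coding start. Its summit, at 916264, was 336 bp past the HTA1 stop, in the gap before ADK1, an adenylate kinase gene. The fold was 1.56, from a pileup of 254 over a background of 162, which is 5.72 times the list floor.

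A summit at nearly the same base was called in wild_type replicate 1, outside the histone windows. That peak, from 916152 to 916592, had its summit at 916259, 331 bp past the HTA1 stop, with a fold of 1.59. Its near edge was 224 bp past the stop, so it counted for neither gene. The 2 wild_type libraries thus shared the summit and differed in how far the peak extended toward HTB1. In yaf9d the nearest summits lay 6216 and 8008 bp from the HTA1 coding start.

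HHT1 and HHF1, the other H3 and H4 pair, had no peak in their windows in any library. Their spacer of 646 bp was not touched. The closest peak had its summit inside IPP1, the inorganic pyrophosphatase gene next to HHT1. It was called in both wild_type libraries, from 257053 to 257899 and from 257009 to 257960, with summits 470 and 458 bp past the HHT1 stop. The folds were 1.84 and 1.89. The nearest edges were 312 and 268 bp past the stop. In yaf9d the nearest summits lay 9895 and 8799 bp from HHT1. Past HHF2, a peak with summits 2105 and 2100 bp beyond the stop was also called in the wild_type libraries alone, with folds of 2.32 and 1.91. Within 3 kb of the histone genes no peak was called in both yaf9d libraries alone. The share of all peaks with either pattern was not counted, so no genotype difference is read from these flanks.

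The paired H3 and H4 loci thus differed in these lists, although they encode the same proteins. Copies of a histone gene are similar in their coding regions, and how the authors' processing placed reads that match both copies is not given in the sources used here. The HHT2 summits, 24 to 87 bp inside the coding start, lie in such a region.

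HHO1, which encodes the linker histone H1, had no nearby peak. It shares a spacer of 605 bp with NAN1, a gene for the small subunit processome that is read the other way, and no peak lay within 3 kb. The nearest summit lay 6181 and 6007 bp from the coding start in yaf9d and 6182 and 6165 bp in wild_type, past the 3′ end of the gene. A peak below the folds given above for each list, at its median background, would not have been listed.

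Counted as divergent spacers, 2 of 6 histone loci had a peak in all 4 libraries and 2 of 6 had one in no library. In the genome, 1419 such spacers lie between neighbouring coding genes, and 6.84% of them had a peak in all 4 libraries and 70.8% in none of the 4. Their median length was 486 bp, and the histone spacers, at 605 to 1365 bp, were all longer. Among the 540 spacers of at least 605 bp, a limit chosen after the data were seen, 14.4% had a peak in all 4 libraries and 59.3% in none. In single libraries 2 of 6 histone spacers had a peak in each yaf9d library, where genome spacers of all lengths gave 12.9% and 13.5%. In wild_type replicates 1 and 2 it was 2 and 4 of 6, where the genome gave 20.2% and 17.3%. A summit lay in 1 and 0 of the 6 in yaf9d and in 0 and 1 in wild_type, while 10.3% and 8.39% of all divergent spacers in yaf9d and 6.84% and 7.82% in wild_type held a summit. These shares of single libraries were not counted among the longer spacers, so no excess is read from them.

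Of 36 genes that regulate, chaperone or assemble histones, 2 and 4 were called in yaf9d and 5 and 4 in wild_type. The means were 3 ± 1.41 genes in yaf9d and 4.5 ± 0.707 in wild_type (SD, n = 2 each; two-sided exact permutation p = 0.667). That is 5.56% and 11.1% of the list in yaf9d and 13.9% and 11.1% in wild_type, below the 14.4% and 22.4% of all genes in yaf9d and the 21.2% and 18.1% in wild_type. In no library were 28 of the 36 called, or 77.8%, against 63% of all genes. Among those 28, picked for their roles after the values were seen, were HIR1, HIR2 and HIR3 of the HIR complex, SPT10 and SPT21, which activate histone genes, the SBF subunits SWI4 and SWI6, RTT106, an H3 and H4 chaperone, and CSE4, the centromeric H3 variant.

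ASF1, the H3 and H4 chaperone that works with the HIR complex, was the only regulator called in all 4 libraries, 2.78% of the list against 6.05% of all genes. Its highest folds were 3.10 and 3.20 in yaf9d and 1.62 and 2.62 in wild_type. The matching summits lay 794 and 675 bp upstream of the coding start in yaf9d and 674 bp upstream in wild_type replicate 2, beyond the window, while that of wild_type replicate 1 was inside the gene. STH1, the ATPase of the RSC remodeler, had a fold of 2.28 in yaf9d replicate 2 and 2.37 and 2.69 in wild_type, and CAC2, a subunit of the CAF-1 assembly factor, had 1.50 in yaf9d replicate 2 and 1.55 and 1.66 in wild_type. Neither was called in yaf9d replicate 1. HPC2, PSH1, NAP1, SNF2 and YTA7, named after their values were seen, were called in a single library each.

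By the 4 rank percentiles of fold, the promoter peaks most like that of HHT2 among 287 other genes called upstream in all 4 libraries were those of SPO19, TEL1 and COQ1. The SPO19 folds were 1.25 and 1.45 in yaf9d and 1.62 and 1.47 in wild_type. For HTZ1 the nearest were COQ1, ILV3 and SPO19, with COQ1 at 1.63 and 1.53 in yaf9d and 1.78 and 1.69 in wild_type. SPO19 and COQ1 were thus named for both. At these 2 genes both yaf9d folds lay below both wild_type folds, which may follow in part from picking them for ranks like those of HHT2. At TEL1 and ILV3 the genotypes overlapped. The likeness is over 4 libraries and describes the level within each list.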

How the data were processed

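The 4 ChIP-seq libraries of myc-tagged Swc4 comprise 2 of yaf9d and 2 of wild_type, grouped by sample title. The tools were MACS2 (listed as version 2), SAMtools 1.4 and BWA 0.7.15-r1140, per the submitters' processing notes. Their roles, the genome build, any control, the peak threshold and how multiply matching reads were placed are not given there. Peaks were called separately in each library, and 1 list of each was deposited. Each deposited list gives a score (not used), a ratio (the authors' summit fold over local background), and the authors' −log10 p-value and −log10 q-value, with a lowest −log10 q-value of 1.31. Such values were used to describe or rank peaks within a list.

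Names, strands and distances came from the RefSeq gene table of R64 (6477 genes), whose coordinates are not printed since the lists name no build. As a check, 88.3% of 298 summits found within 300 bp of a tRNA gene's middle were within 100 bp of it. Of 36 regulators, 35 matched by symbol and HPA1 as a synonym of ELP3. Mitochondrial peaks were left out. Pileup and background were solved from the fold, taken as pileup plus 1 over background plus 1, and a Poisson upper tail, within 0.001 of the listed value. A whole-number pileup was found for 99.0% and 99.5% of peaks in yaf9d and 99.5% and 99.9% in wild_type. Depth beyond this is unknown, and no intervals are given.

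Library values of the genotypes were compared with an exact permutation test, two-sided. Named genes were the 10 histone genes, YAF9, SWC4, regulators called in both libraries of a genotype, and the 3 genes nearest in rank to each histone locus called in all 4 libraries. Other regulators were named after their values were seen. SWC4 had no peak in any library. Members and lists were chosen with earlier results of these data known. Window and pileup scripts were tested on simulated data. Python 3.11.15, pandas 2.3.3, numpy 2.4.6, SciPy 1.17.1 and matplotlib 3.10.9 were used. Alternatives were a fold of 2 or more, a −log10 q-value of 5 or more, windows of 250 and 1000 bp, summits in place of overlap, an overlap of 100 bp, leaving out each library, and a replicate block. For summit positions, the peak with the highest fold was a further alternative.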

Additional observations from a re-analysis of the deposited data

Results flagged for a closer look

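Peaks on the mitochondrial genome, which took no part in any comparison, numbered 39 in yaf9d replicate 2 and 0 in yaf9d replicate 1 and in both wild_type libraries. Their folds ranged from 1.37 to 2.37, with a median of 1.85. They are singled out because they lie outside the nuclear lists. They have no counterpart in the other yaf9d library or in the wild_type libraries.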

How the results depend on the processing

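Leaving aside the replicate block, which cannot move a difference, and upstream windows alone, whose calls nearly repeat those of body or upstream windows, the yaf9d minus wild_type differences kept their direction in 35 of 38 alternatives over 5 results. Taking the highest-fold peak at HHT2 and HTZ1 could change nothing, since each window held 1 peak per library. The tally also counts the HTZ1 summit, for which no direction is given. All alternatives reuse the same 4 libraries, so the tally does not measure support. The lowest exact permutation p, 0.333, is the smallest that 4 libraries can give. With the peak threshold, the difference in histone genes called ran from -4 at a −log10 q-value of 5 or more to -1 at a fold of 2 or more. At the former the histone counts of the genotypes did not overlap. The shares of all genes, 11.7% and 16.6% in yaf9d and 15.5% and 13.7% in wild_type, did overlap. The shared HHT2 and HHF2 peak lay under this threshold in both yaf9d libraries, at 4.59 and 4.24. At a fold of 2 or more the regulator difference became 0 genes. In coding regions the histone difference was -2 and -0.5 genes at these thresholds. Windows of 250 bp, or 100 bp of overlap, removed HTZ1 from yaf9d replicate 1, for a difference of -2.5 genes. Leaving out 1 library gave ranges of -4 to 0 genes for body or upstream windows and for upstream windows alone, -2.5 to -0.5 for coding regions, -2.5 to -0.5 for regulators, 6 to 44 bp for the HHT2 summit and -7 to 837 bp for the HTZ1 summit. The HTZ1 summit difference was -7 bp without yaf9d replicate 1, where the displaced peak is absent by construction.

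Shared replicate numbers are not stated to mark a shared culture or day, and deviations of same-numbered libraries correlated at -0.0673 over 363 genes called in all 4 libraries. With the replicate block the differences were unchanged at -2, -2, -1.5 and -1.5 genes and at 25 and 415 bp, since pairing equal groups leaves a mean difference as it is. The sign-flip test cannot give an exact p below 0.5 with 2 pairs.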
